A study of Homo sapiens with 36 samples.

Results

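A set of 10 genes separated the DIS3-AID clone from its control line, and they were followed through every fraction and treatment: 5 gained in the clone (TNFSF4, LRP1B, SPARC, AZGP1P2 and CARMAL) and 5 nearly lost from it (NRIP1, AF127577.4, ZNF850, ERBB4 and TUSC3). They are 10 of the 59607 features in each total RNA table. They were selected on the measured difference between untreated DIS3-AID and untreated control libraries, so that difference is given as a description with no test. The same difference in auxin-treated libraries, the response to auxin and the split between chromatin and cytoplasm were tested.

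Both lines derive from HCT116, a human colon carcinoma line, and both express TIR1, the plant receptor through which auxin directs degron-tagged proteins to degradation. DIS3-AID cells are a CRISPR clone whose DIS3 protein, one of the exosome's RNA-degrading subunits, carries the auxin-inducible degron. Control cells carry TIR1 and no tagged DIS3. The 4 groups were DIS3-AID cells after 1 h of 500 uM auxin, untreated DIS3-AID cells, control cells after the same auxin treatment, and untreated control cells. Each group had 3 libraries of chromatin total RNA, 3 of cytoplasm total RNA and 3 of cytoplasm polyA RNA, 36 libraries in all. The design text describes a single clone and calls the cytoplasmic triplicates technical, so a difference between the lines cannot be told apart from a difference between any 2 clones. The p-values take in no more than the spread among these libraries, which may be technical.

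A clone is grown from 1 cell and can keep the on or off state of genes that varied among the cells of the parental culture. RNA bound to chromatin is rich in transcripts still being made, and the cytoplasm holds exported RNA, so a gene's presence in both fractions shows where along that path its RNA is found. Several of the 10 genes belong to signalling systems studied in epithelial tumours: TNFSF4 is the OX40 ligand, ERBB4 a receptor for neuregulins, NRIP1 a corepressor of nuclear receptors, and SPARC a secreted collagen-binding protein.

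Library totals, in units of 1000000 counts, ranged from 50.3 to 139.0 in chromatin, from 59.5 to 122.6 in cytoplasm total RNA and from 25.9 to 33.1 in polyA RNA. DIS3 itself averaged 45.8 ± 0.937 CPM (counts per 1000000 scaled library counts) in auxin-treated DIS3-AID cytoplasm and 93.0 ± 3.21 CPM in auxin-treated control cytoplasm (SD, n = 3 each), a log2 difference of -1.02 (adjusted p = 6.43e-12). Its RNA was lower in the clone without auxin as well, at 50.1 ± 2.63 CPM against 90.5 ± 2.58 CPM in untreated control cytoplasm. RNA levels do not report whether the protein was removed. Markers of colon epithelium were present in both lines, with a summed level of 3200 to 3280 CPM over 15 genes in auxin-treated DIS3-AID cytoplasm and 2850 to 3030 CPM in auxin-treated control cytoplasm. The sum hides a split: of 11 tested there 2 were higher and 6 lower in the clone (median log2 difference -0.24). Of all features 56.9% differed there. Without auxin 3 were higher and 1 lower (median 0.03), where 22.1% of all features differed. Adjusted p-values come from edgeR's quasi-likelihood test with Benjamini-Hochberg adjustment over all features tested in a data set, and a gene was called at an adjusted p under 0.05. Differences are log2 ratios of DIS3-AID to control or of auxin to untreated, given ± their standard error.

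TNFSF4 (ENSG00000117586.10, hg38 chr1:173183734-173207313, minus strand) encodes OX40 ligand, the membrane protein that stimulates OX40 on activated T cells. On chromatin its level was 13.6, 13.9 and 15.1 CPM in auxin-treated DIS3-AID libraries, against 1.17, 1.24 and 0.916 CPM in auxin-treated control libraries. Its cytoplasmic level was 31.2, 29.1 and 25.7 CPM in auxin-treated DIS3-AID cells, against 1.77, 1.63 and 1.25 CPM in auxin-treated control cells. Every DIS3-AID library lay above every control library in both fractions. The difference was 3.65 ± 0.1 on chromatin (adjusted p = 4.9e-15) and 4.19 ± 0.1 in the cytoplasm (adjusted p = 5.25e-16). In untreated cytoplasm, which served to choose the gene, it stood at 28.8, 31.5 and 29 CPM in DIS3-AID cells and at 1.45, 1.56 and 1.42 CPM in control cells, close to the levels with auxin in both lines. In polyA RNA, TNFSF4 had 3.5, 3.88 and 3.15 CPM in auxin-treated DIS3-AID libraries, against 0.0328, 0.0697 and 0.0774 CPM in auxin-treated control libraries. That difference was 5.8 ± 0.37, with no p given, as TNFSF4 passed the filter on low counts there through DIS3-AID libraries only. TNFRSF4, the gene of its receptor, had 14 counts over the 3 auxin-treated DIS3-AID chromatin libraries and 17 over the 3 auxin-treated control libraries.

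LRP1B (ENSG00000168702.17, chr2:140231423-142131701, minus strand) encodes a large endocytic receptor of the LDL receptor family and spans 1900.3 kb. Its chromatin level was 266, 287 and 311 CPM in auxin-treated DIS3-AID libraries, against 51.4, 48.5 and 44.5 CPM in auxin-treated control libraries. Its cytoplasmic level was 14.8, 14.8 and 12.7 CPM in auxin-treated DIS3-AID cells, against 1.49, 1.03 and 1.11 CPM in auxin-treated control cells. The lines did not overlap in either fraction, and control cells already had LRP1B RNA on chromatin, from 2236 to 3553 counts per auxin-treated library. The difference was 2.58 ± 0.07 on chromatin (adjusted p = 6.23e-15) and 3.52 ± 0.13 in the cytoplasm (adjusted p = 6.65e-14). Untreated chromatin had 266, 239 and 241 CPM in DIS3-AID cells and 43.8, 47.3 and 45.4 CPM in control cells, with no overlap between the lines. The polyA libraries held 3 LRP1B counts in auxin-treated DIS3-AID cells and 0 in the other groups. LRP1B shares exonic bases on its own strand with AC078882.1 (349 bases) and RF02271 (99 bases), of 17040 exonic bases in all, and how reads were divided there is not given in the sources used here.

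SPARC (ENSG00000113140.10, chr5:151661096-151687165, minus strand) encodes a secreted glycoprotein that binds collagen and modulates contact between cells and matrix. Cytoplasmic levels were 7.6, 8.14 and 8.22 CPM in auxin-treated DIS3-AID cells, against 2.08, 1.27 and 1.27 CPM in auxin-treated control cells. The untreated cytoplasm had 10.5, 12.1 and 10.6 CPM in DIS3-AID cells and 1.26, 1.13 and 1.2 CPM in control cells. The lines stood apart under both conditions, but the auxin-treated clone lay below the untreated clone in every library. With auxin the line difference was 2.35 ± 0.13 in the cytoplasm (adjusted p = 4.39e-11) and 2.8 ± 0.12 in polyA RNA (adjusted p = 8.51e-17). On chromatin SPARC stood at 3.95, 3.87 and 3.85 CPM in auxin-treated DIS3-AID libraries, against 0.811, 0.833 and 0.896 CPM in auxin-treated control libraries, a difference of 2.21 ± 0.12 (adjusted p = 1.17e-10). The antisense RNA CLMAT3 overlaps 381 exonic bases of SPARC, and since the strand setting of the counting is not given, reads of the pair cannot be told apart there.

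AZGP1P2 (ENSG00000214252.4, chr7:101287482-101289771, minus strand) is an unprocessed pseudogene of AZGP1, the gene of zinc-alpha-2-glycoprotein, a secreted protein linked to lipid mobilisation. Its 345-base annotated transcript (GENCODE 29, hg38, 2 exons) was the highest-ranked feature gained in untreated cells, so its bases 1 to 300 are shown. The transcript aligns without gaps to AZGP1-201 at 84.1% identity, and capitals mark the bases that differ, 51 in this stretch.
AZGP1P2: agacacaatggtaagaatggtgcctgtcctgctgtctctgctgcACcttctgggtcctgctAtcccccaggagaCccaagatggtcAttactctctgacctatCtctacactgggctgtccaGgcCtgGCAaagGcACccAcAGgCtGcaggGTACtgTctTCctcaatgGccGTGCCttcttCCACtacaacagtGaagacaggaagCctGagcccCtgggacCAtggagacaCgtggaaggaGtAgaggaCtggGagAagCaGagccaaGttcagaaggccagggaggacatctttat

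AZGP1P2 RNA was at or next to 0 in control cells. Its chromatin level was 16.4, 15.6 and 15.0 CPM in auxin-treated DIS3-AID libraries, against 0.029, 0.0273 and 0.0199 CPM in auxin-treated control libraries. Those control values rest on 5 counts over 3 libraries, so the 606-fold higher level in the clone has a 95% interval of 259 to 1870 (exact conditional, counting error only). Cytoplasm libraries had 2.68, 2.88 and 3.05 CPM in auxin-treated DIS3-AID cells and 0 in all 3 auxin-treated control libraries. Taking 3 counts over the group as the floor, cytoplasmic AZGP1P2 was at least 271-fold higher in the clone. In polyA RNA it was at least 80.7-fold higher, at 2.49, 2.99 and 3.08 CPM in auxin-treated DIS3-AID libraries and 0 counts in auxin-treated control libraries. Untreated chromatin had 18.1, 18.9 and 17.1 CPM in DIS3-AID cells and 12 counts over the 3 control libraries. AZGP1 itself had 11 counts over the auxin-treated DIS3-AID chromatin libraries and 9 over the control ones, so the parent gene was near 0 in both lines.

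CARMAL (ENSG00000260123.1, AC013565.1 in GENCODE 29, chr15:89041223-89082819, plus strand) is a long non-coding RNA gene that lies between MFGE8 and ABHD2. Its chromatin level was 9.92, 8.64 and 8.31 CPM in auxin-treated DIS3-AID libraries, against 0.753, 1.12 and 0.876 CPM in auxin-treated control libraries. The cytoplasm had 1.2, 0.825 and 1.05 CPM in auxin-treated DIS3-AID cells, against 0.0787, 0.0655 and 0.101 CPM in auxin-treated control cells. The lines did not overlap in either fraction, although auxin-treated control cytoplasm held 6 to 9 counts per library. The difference was 3.28 ± 0.13 on chromatin (adjusted p = 1.94e-12), 3.66 ± 0.26 in the cytoplasm and 3.26 ± 0.45 in polyA RNA. No p is given for cytoplasm or polyA RNA, where CARMAL passed the filter on low counts through DIS3-AID libraries only. Untreated chromatin had 8.64, 10.1 and 8.98 CPM in DIS3-AID cells and 0.621, 0.473 and 0.55 CPM in control cells, again with no overlap. PolyA RNA had 0.981, 0.747 and 1.08 CPM in auxin-treated DIS3-AID cells, against 0.131, 0.105 and 0.0387 CPM in auxin-treated control cells.

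**Figure D1:**
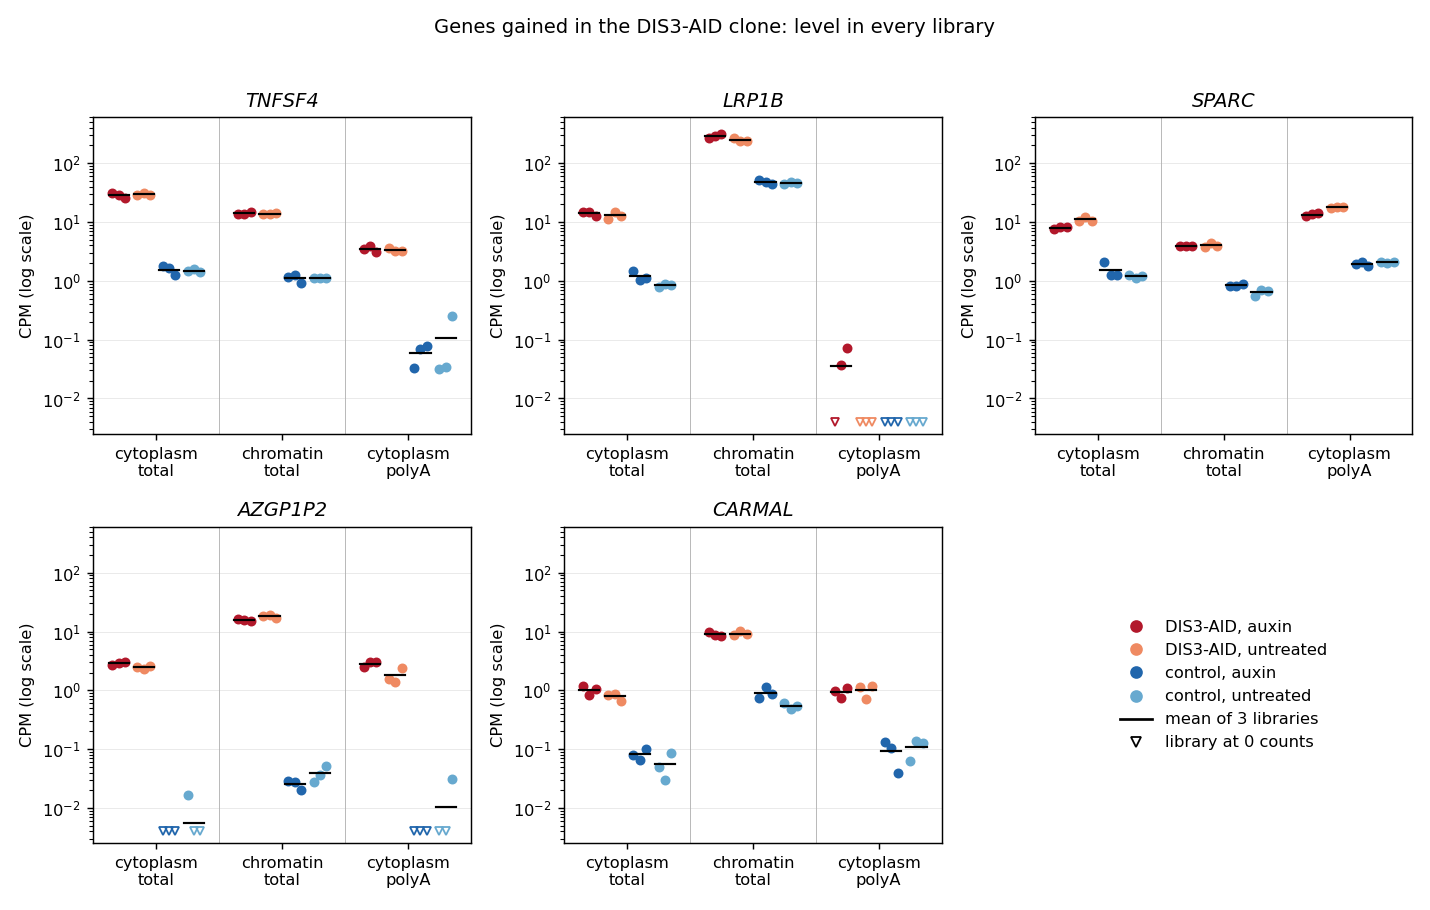
Levels of the 5 gained genes in CPM (log axis) for every library of the 3 data sets, with DIS3-AID groups left of control groups, a bar at each mean of 3 libraries and open triangles for libraries at 0 counts. TNFSF4 lies between 25.7 and 31.5 CPM in DIS3-AID cytoplasm and between 1.25 and 1.77 CPM in control cytoplasm, and AZGP1P2 is at or near 0 in control cells alone.

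NRIP1 (ENSG00000180530.10, chr21:14961235-15065936, minus strand) encodes RIP140, a cofactor that represses or tunes transcription by oestrogen and other nuclear receptors. In the cytoplasm it had 0 counts in all 3 auxin-treated DIS3-AID libraries, against 5.06, 5.18 and 4.53 CPM in auxin-treated control libraries. With 3 counts over the group as the floor, it was at least 406-fold lower in the clone. On chromatin it was 0.055, 0.0378 and 0.0173 CPM in auxin-treated DIS3-AID libraries, against 6.14, 5.94 and 6.45 CPM in auxin-treated control libraries. The clone's chromatin held 7 NRIP1 counts in all, which makes its level 161-fold lower (95% interval 77.8 to 401, counting error only). No p is given for NRIP1, which passed the filter on low counts through control libraries only. Without auxin the picture was alike, with 2 counts in DIS3-AID cytoplasm and 4.16, 4.6 and 3.74 CPM in control cytoplasm. In polyA RNA NRIP1 had 6 counts in untreated and 3 in auxin-treated control libraries, where AF127577.4 had 214 and 241. The clone's polyA libraries had 0 NRIP1 counts, so its loss could not be followed there.

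AF127577.4 (ENSG00000235609.7, chr21:14818843-15014430, minus strand) is an intergenic long non-coding RNA gene that overlaps NRIP1 on the same strand and shares 87 exonic bases with it. In the cytoplasm it had 2 counts over the 3 auxin-treated DIS3-AID libraries, against 5.06, 5.11 and 4.54 CPM in auxin-treated control libraries. These control levels almost equal those of NRIP1, library by library, so how far the pair counts the same reads cannot be told apart here. On chromatin AF127577.4 had 0.248, 0.208 and 0.121 CPM in auxin-treated DIS3-AID libraries, against 4.05, 3.78 and 4.58 CPM in auxin-treated control libraries. The clone thus kept a low chromatin signal, 20.8-fold below control (95% interval 14.9 to 29.9, counting error only). In polyA RNA it had 0 counts in auxin-treated DIS3-AID libraries and 3.02, 3.03 and 2.4 CPM in auxin-treated control libraries, at least 78.6-fold lower in the clone.

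The start region of NRIP1 is shown because NRIP1 was the most reduced gene of the clone: 250 bases before its outermost RefSeq start, with every CG in capitals (RefSeq, GRCh38.p14, chr21:15065937-15066186, minus strand). It holds 11 CG, equal to the median of 11 over 35116 RefSeq windows of the same length.
NRIP1: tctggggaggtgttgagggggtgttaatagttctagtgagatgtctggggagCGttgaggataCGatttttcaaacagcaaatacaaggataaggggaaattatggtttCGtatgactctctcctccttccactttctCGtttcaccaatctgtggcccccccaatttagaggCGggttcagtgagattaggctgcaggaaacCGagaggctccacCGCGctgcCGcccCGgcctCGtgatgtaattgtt

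ZNF850 (ENSG00000267041.5, chr19:36714383-36772825, minus strand) encodes a zinc finger protein of the large cluster on chromosome 19. Cytoplasm libraries had 0.158, 0.0809 and 0.0965 CPM in auxin-treated DIS3-AID cells, against 2.6, 2.88 and 3.0 CPM in auxin-treated control cells. On chromatin it was 0.289, 0.246 and 0.121 CPM in auxin-treated DIS3-AID libraries, against 2.4, 2.14 and 2.39 CPM in auxin-treated control libraries. The lines were far apart in both fractions, and a residue remained in the clone, with 29 cytoplasmic and 41 chromatin counts over 3 libraries each. The difference was -3.36 ± 0.23 on chromatin (adjusted p = 2.03e-09) and -4.57 ± 0.21 in the cytoplasm (adjusted p = 1.22e-12). Untreated chromatin had 0.211, 0.11 and 0.181 CPM in DIS3-AID cells and 2.49, 1.86 and 1.91 CPM in control cells, with no overlap. ZNF850 was not analysed here in polyA RNA. The non-exonic part of its promoter window is printed beside that of NRIP1, with CG in capitals (RefSeq, GRCh38.p14, chr19:36772826-36773057, minus strand). The full 250-base window holds 19 CG, a number that 34.6% of RefSeq windows reach or exceed.
ZNF850: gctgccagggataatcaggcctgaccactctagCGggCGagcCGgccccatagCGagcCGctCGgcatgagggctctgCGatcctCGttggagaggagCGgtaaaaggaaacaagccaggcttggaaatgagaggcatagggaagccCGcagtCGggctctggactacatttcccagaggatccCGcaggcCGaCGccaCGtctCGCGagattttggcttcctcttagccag

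ERBB4 (ENSG00000178568.14, chr2:211375717-212538841, minus strand) encodes the receptor tyrosine kinase that binds neuregulins, and spans 1163.1 kb. On chromatin it was 0.413, 0.246 and 0.208 CPM in auxin-treated DIS3-AID libraries, against 2.98, 3.39 and 2.41 CPM in auxin-treated control libraries. That difference was -3.3 ± 0.2 (adjusted p = 6.22e-10), and the lines did not overlap. In the cytoplasm the counts were few, at 0.277, 0.356 and 0.157 CPM in auxin-treated DIS3-AID cells and 0.192, 0.218 and 0.164 CPM in auxin-treated control cells. There the lines overlapped, and the difference of 0.42 ± 0.35 did not pass (adjusted p = 0.318, and 0.114 to 0.692 under the alternatives run). In auxin-treated cells the ERBB4 difference was thus called on chromatin and not in the cytoplasm. Untreated chromatin had 0.323, 0.207 and 0.329 CPM in DIS3-AID cells and 3.03, 2.93 and 2.78 CPM in control cells. In untreated cytoplasm ERBB4 ranked 190th among features lower in the clone, at -1.08.

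TUSC3 (ENSG00000104723.20, chr8:15417215-15766649, plus strand) encodes an oxidoreductase subunit of the oligosaccharyltransferase, the enzyme of N-linked protein glycosylation. On chromatin it was 1.03, 0.699 and 1.08 CPM in auxin-treated DIS3-AID libraries, against 6.41, 5.84 and 5.31 CPM in auxin-treated control libraries. The cytoplasm had 0.0988, 0.0971 and 0.109 CPM in auxin-treated DIS3-AID cells, against 0.393, 0.251 and 0.481 CPM in auxin-treated control cells. The lines did not overlap in either fraction. The difference was -2.63 ± 0.14 on chromatin (adjusted p = 7.54e-11) and -1.86 ± 0.3 in the cytoplasm. No p is given for the cytoplasm, where TUSC3 passed the filter on low counts through control libraries only. Untreated chromatin had 0.99, 0.813 and 0.938 CPM in DIS3-AID cells and 4.94, 5.33 and 5.81 CPM in control cells. The polyA libraries held 1 TUSC3 count in auxin-treated DIS3-AID cells and 15 in auxin-treated control cells. Its paralogue MAGT1, named after its values were seen, had 31.6 ± 2.49 CPM in auxin-treated DIS3-AID cytoplasm and 47.9 ± 5.63 CPM in auxin-treated control cytoplasm (SD, n = 3 each), a difference of -0.6 (adjusted p = 4.63e-06). Without auxin its difference was -0.17 and not called (adjusted p = 0.14), and the auxin effect in the clone was -0.35 (adjusted p = 0.00242).

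**Figure D2:**
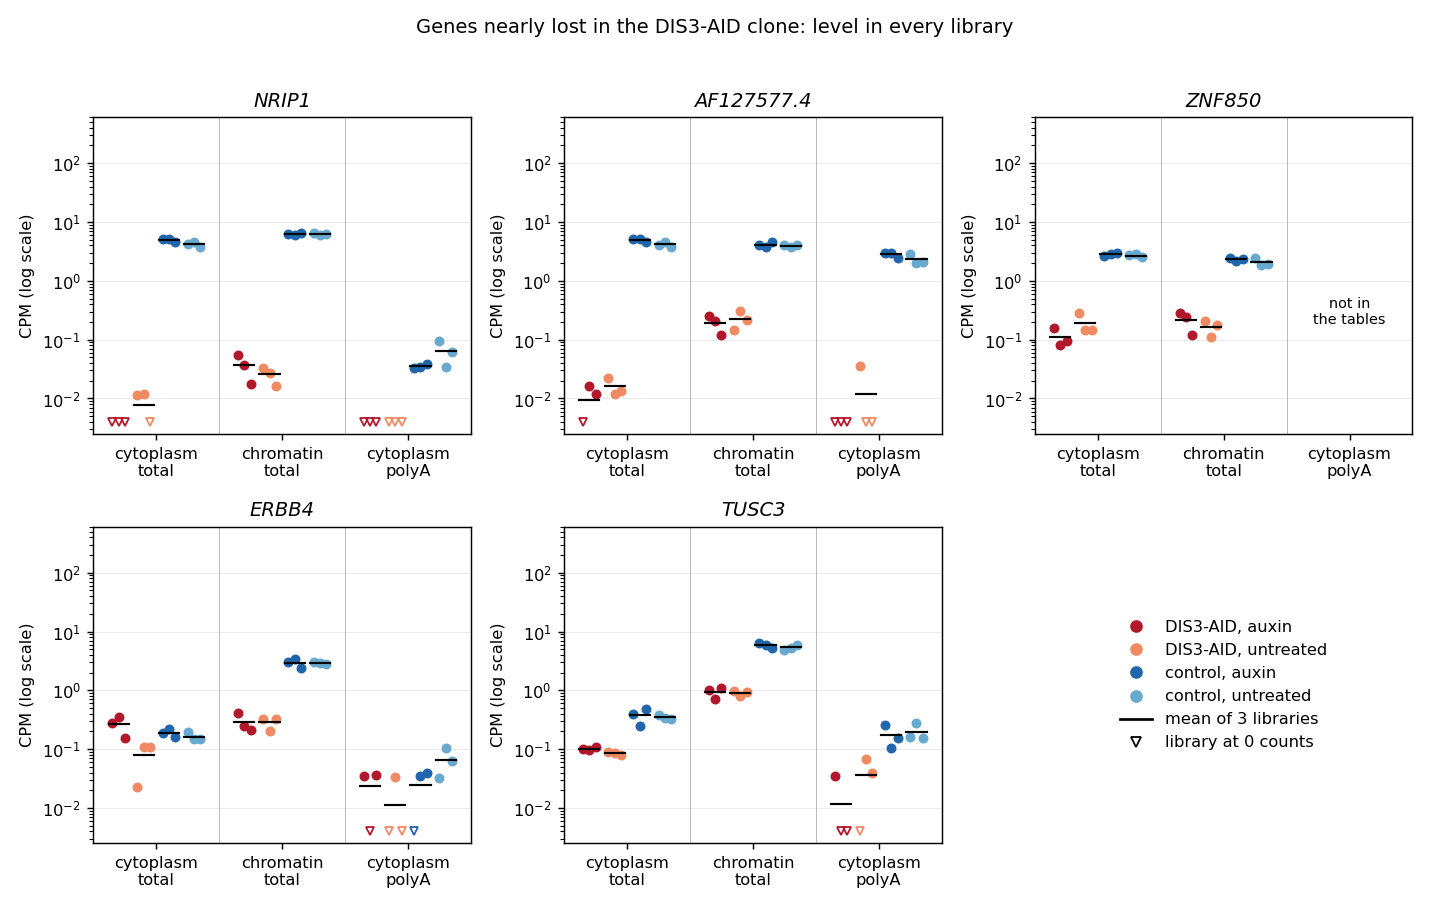
Levels of the 5 nearly lost genes in CPM (log axis) for every library, drawn as for the gained genes. NRIP1 is at 0 in all 3 auxin-treated DIS3-AID cytoplasm libraries and between 4.53 and 5.18 CPM in auxin-treated control cytoplasm, while ERBB4 overlaps between the lines in auxin-treated cytoplasm.

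In the untreated libraries that chose the genes, AZGP1P2 ranked first among features higher in the clone and NRIP1 first among features lower, in both total RNA sets. On chromatin TNFSF4 ranked 12th at 3.61, between ENSG00000254100.1 at 3.86 and TUBAL3 at 3.43, and TUSC3 ranked 19th among lower features at -2.55. The 10 genes are therefore a selection and not the top of the list: SLC5A1 at 4.41 lay just above CARMAL at 4.04 on chromatin, and EXO5 at -8.09 lay between NRIP1 at -8.77 and AF127577.4 at -7.88 in the cytoplasm. Of all features tested, 32.5% on chromatin, 22.1% in the cytoplasm and 12.1% in polyA RNA differed between the untreated lines.

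In auxin-treated libraries, 10 of 10 genes differed between the lines on chromatin, where 39.3% of all features did, and 9 of 10 in the cytoplasm, where 56.9% did. The 5 gained genes were each at least 2-fold higher, a size reached by 4.45% of features on chromatin and 16.7% in the cytoplasm. The 5 nearly lost genes were each at least 2-fold lower on chromatin, a size reached by 2.12% of features, and all but ERBB4 were so in the cytoplasm, where 1.42% of features were. In polyA RNA 5 genes passed the filter on low counts and 5 were called, against 38.9% of all features. Of these, TNFSF4, SPARC, AZGP1P2 and CARMAL were at least 2-fold higher, as were 10.7% of features, and AF127577.4 at least 2-fold lower, as were 1.06%. Genes with a line at or near 0, such as AZGP1P2, NRIP1 and AF127577.4, passed that filter only through the line where they were high and had to differ. So did TNFSF4 in polyA RNA, CARMAL in the cytoplasm and polyA RNA, and TUSC3 in the cytoplasm, and the counts are a description.

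**Figure D3:**
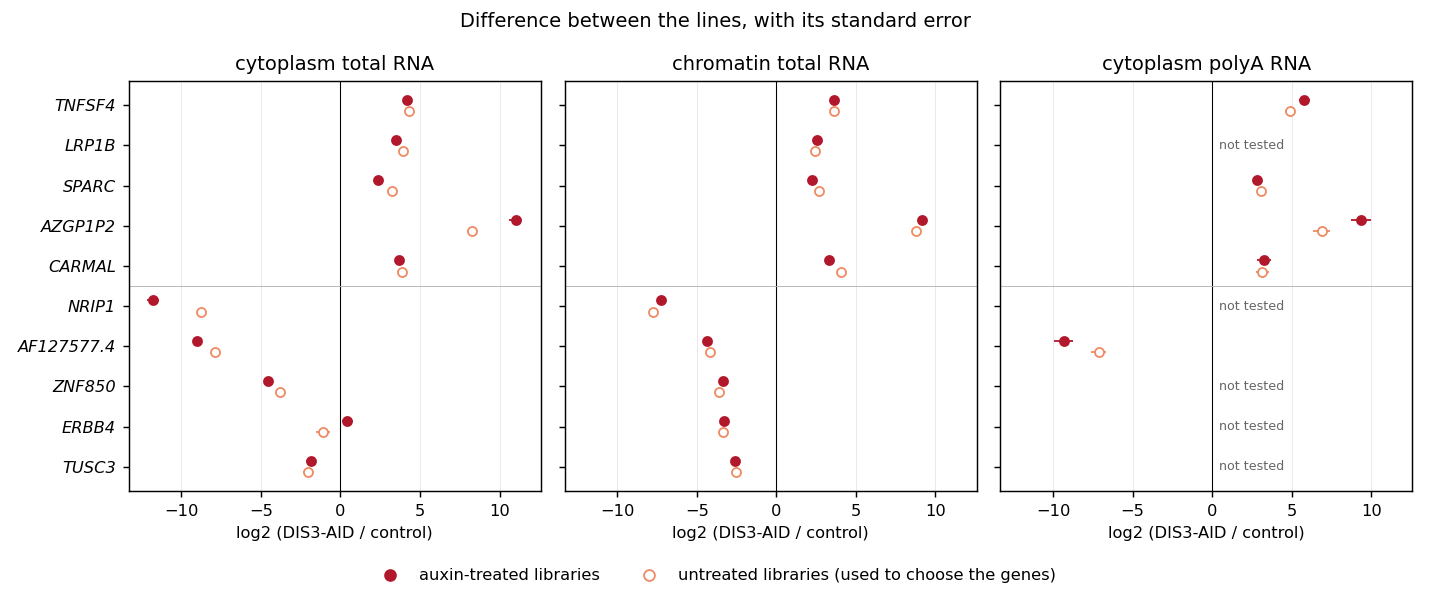
Log2 difference between the lines (DIS3-AID over control) with its standard error for each gene in the 3 data sets, filled points for auxin-treated libraries and open points for the untreated libraries used to choose the genes. ERBB4 in the cytoplasm is the one filled point near 0, at 0.42 ± 0.35, and fitted values of genes with a group at 0 counts depend on the prior count.

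The response of the 10 genes to auxin was read against that of all features. In the clone's cytoplasm 2 of 10 changed, where 34.3% of all features did: SPARC fell by 0.47 ± 0.11 (adjusted p = 0.00331) and ERBB4 rose by 1.71 ± 0.42 (adjusted p = 0.00401). ERBB4 had 28, 22 and 13 counts in the auxin-treated DIS3-AID libraries and 2, 9 and 8 counts in the untreated ones, so the rise rests on few reads. On the clone's chromatin 2 of 10 changed against 20.5% of all features: LRP1B rose by 0.21 ± 0.07 (adjusted p = 0.0273) and AZGP1P2 fell by 0.2 ± 0.07 (adjusted p = 0.0416). In its polyA RNA 2 of the 5 tested changed against 17.2% of all features: SPARC fell by 0.4 ± 0.09 (adjusted p = 0.00112), and AZGP1P2 rose by 0.67 ± 0.22 (adjusted p = 0.0326). AZGP1P2 thus went in opposite directions in those data sets, and DESeq2 did not call it in either; the LRP1B call ended with library sizes alone and with a replicate block. On chromatin, leaving out auxin-treated clone library 2 or 3 ended both calls, with adjusted p of 0.0826 and 0.163 for LRP1B and 0.101 and 0.129 for AZGP1P2. Leaving out the second untreated clone library did so too (0.102 for LRP1B and 0.159 for AZGP1P2), as did the third untreated one for LRP1B (0.108) and the first for AZGP1P2 (0.0786). The polyA call of AZGP1P2 ended without auxin-treated library 2 or 3 (0.103 and 0.113) or untreated library 1 or 2 (0.138 and 0.169). The untreated libraries served both to choose the genes and as the baseline of these contrasts.

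In control cells, 0 of 10 genes changed with auxin in the cytoplasm by edgeR and 0 by DESeq2, with 4 at an unadjusted p under 0.05, where 0.0478% of all features were called. On control chromatin CARMAL rose by 0.72 ± 0.18 (adjusted p = 0.0086), 1 of 10 genes against 17.0% of all features. CARMAL had 0.753, 1.12 and 0.876 CPM in auxin-treated control chromatin, against 0.621, 0.473 and 0.55 CPM in untreated control chromatin. Every auxin-treated library lay above every untreated one, but the call rested on the second auxin-treated library, without which the rise was 0.52 (adjusted p = 0.0865). In control polyA RNA 0 of the 5 tested changed by edgeR or DESeq2, with 0 at an unadjusted p under 0.05, where 0.0480% of all features were called.

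The auxin response differed between the lines for SPARC in the cytoplasm and for CARMAL on chromatin. For SPARC the auxin response of the clone less that of control was -0.86 ± 0.2 (adjusted p = 0.00329), 1 of 10 genes where 19.4% of all features were called. Without the first auxin-treated control library, which had 2.08 CPM beside 1.27 and 1.27, it was -0.53 (adjusted p = 0.0138). For CARMAL the same difference on chromatin was -0.76 ± 0.2 (adjusted p = 0.0138), 1 of 10 genes where 17.7% of all features were called, and -0.57 (adjusted p = 0.0772) without the second auxin-treated control library. ERBB4 in the cytoplasm stood at 1.49 ± 0.56 and did not pass (adjusted p = 0.0749). In polyA RNA 0 of the 5 tested passed by edgeR or DESeq2, with 0 at an unadjusted p under 0.05, where 5.85% of all features were called.

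**Figure D4:**
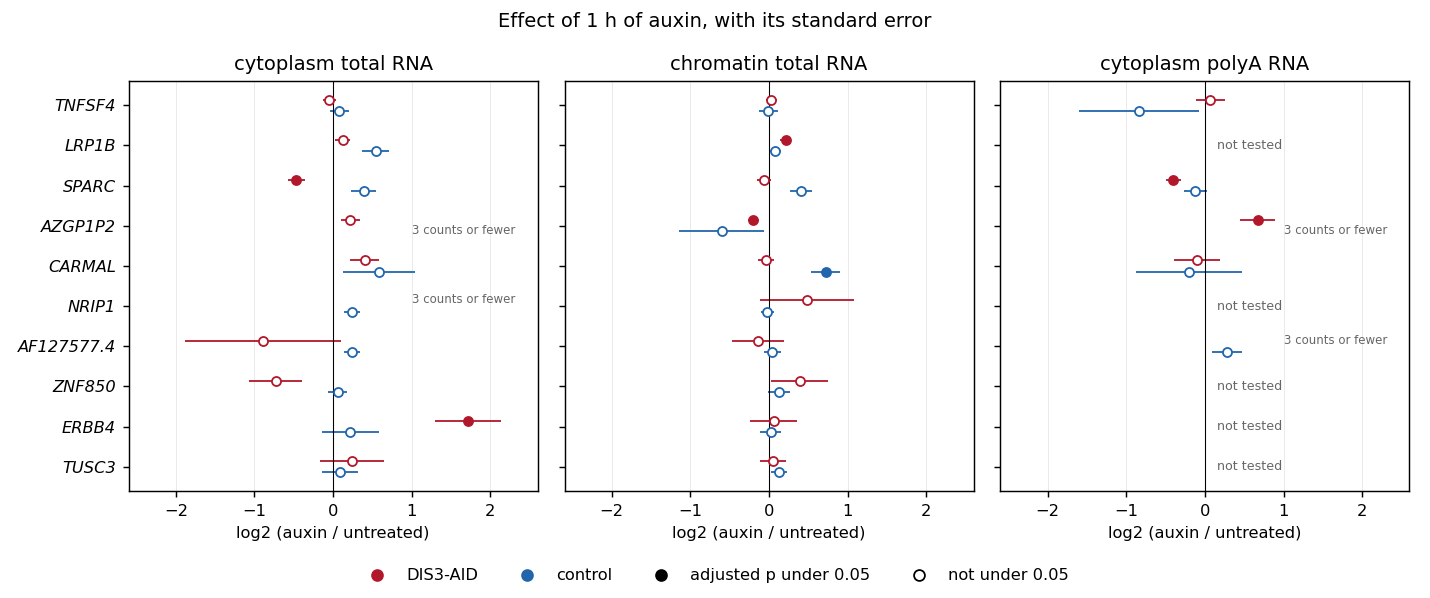
Log2 effect of 1 h of auxin (auxin over untreated) with its standard error in DIS3-AID and control cells, filled where the adjusted p was under 0.05. Most genes lie near 0 in both lines, and ERBB4 in DIS3-AID cytoplasm is the largest called effect at 1.71 ± 0.42.

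The 10 genes were split between chromatin and cytoplasm in different ways. Among the gained genes in untreated DIS3-AID cells, LRP1B (3.63), CARMAL (2.91) and AZGP1P2 (2.24) were higher on chromatin, as log2 ratios of chromatin to cytoplasm, while TNFSF4 (-1.74) and SPARC (-2.08) were higher in the cytoplasm. Among the nearly lost genes in untreated control cells, ERBB4 (3.48) and TUSC3 (3.28) were higher on chromatin and ZNF850 (-1.0) in the cytoplasm. NRIP1 was not called either way (-0.06, adjusted p = 0.558). AF127577.4 stood at -0.7, a call that ended with library sizes alone (-0.04). The 3 genes spanning the longest stretches of genome among the coding ones, LRP1B, ERBB4 and TUSC3, were those on the chromatin side. In untreated DIS3-AID cells the low remaining RNA of TUSC3 (2.76) and AF127577.4 (3.0) lay on the chromatin side. These ratios rest on 21 cytoplasmic counts for TUSC3 and 4 for AF127577.4 over 3 libraries. ERBB4 stood at 1.23 (adjusted p = 0.00514) and at 0.76 (adjusted p = 0.0799) without untreated DIS3-AID cytoplasm library 1. ZNF850 stood at -0.83 (adjusted p = 0.0229), a call that ended with library sizes alone (-0.15), without that same library (-0.42) and without untreated DIS3-AID chromatin library 2 (-0.61). In all, 9 of 10 genes were called in untreated DIS3-AID cells and 9 of 10 in untreated control cells, where 89.3% and 90.2% of all features were called. The control call of AZGP1P2 (1.78) rests on 2 cytoplasmic counts and ended by DESeq2, with no filter, and without untreated control chromatin library 3 (1.4) or untreated control cytoplasm library 2 (1.27) or 3 (1.38). Scaling sets these ratios: the median feature stood at 0.137 in untreated DIS3-AID cells and 0.096 in untreated control cells, and library sizes alone raised these medians by 0.685 and 0.659.

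The difference between the lines was not of one size in both fractions. In auxin-treated cells it differed between chromatin and cytoplasm for 5 of 10 genes, where 39.0% of all features were called, with a median of 0.129 over all features that fell by 0.309 with library sizes alone. LRP1B was raised less on chromatin than in the cytoplasm, by -0.75 ± 0.15 (adjusted p = 0.000107). ERBB4 was lower in the clone on chromatin and not called in the cytoplasm, with a difference of -3.52 ± 0.4 (adjusted p = 4.41e-09). ZNF850 was lowered more in the cytoplasm (1.39 ± 0.4, adjusted p = 0.00557), a call that ended without the first auxin-treated DIS3-AID chromatin library (1.08, adjusted p = 0.077). AF127577.4 stood closer to control on chromatin (4.82 ± 0.65), with no p given, as auxin-treated DIS3-AID cells had 36 chromatin and 2 cytoplasmic counts. The AF127577.4 counts give a level 606-fold lower in the cytoplasm (95% interval 168 to 5010, counting error only) and 20.8-fold lower on chromatin (14.9 to 29.9). NRIP1 is the remaining call, but with 0 cytoplasmic counts in the clone its fitted value depends on the prior count. Its counts give a level at least 406-fold lower in the cytoplasm and 161-fold lower on chromatin (95% interval 77.8 to 401), so the size of any gap between the fractions is not known.

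Genes next to the 10 were examined to see whether a marker stood alone. Of the 3 genes tested within 1 Mb of TUSC3 on chromatin, the nearest, SGCZ (0.08, adjusted p = 0.9) and MSR1 (0.11, adjusted p = 0.823), lay near 0 in auxin-treated cells. Without auxin MSR1 stood at -0.77 and AC011586.2, 832.1 kb away, at 0.63. In the cytoplasm AC011586.2, the only one tested there, was higher in the clone with auxin (2.78, adjusted p = 5.55e-06) and stood at 1.67 without it. LRP1B had 2 tested neighbours on chromatin, the nearer being KYNU, a tryptophan-catabolism gene, at -0.8 (adjusted p = 0.055). CARMAL's nearest chromatin neighbours were ABHD2 (-0.07, adjusted p = 0.36), a lipid hydrolase gene 4.6 kb away, and MFGE8 (-0.9, adjusted p = 0.00024), the gene of a secreted milk-fat globule protein. AC013565.3, the nearest tested feature above CARMAL in the cytoplasm, was higher in the auxin-treated clone (5.0, adjusted p = 5.92e-06) and stood at 0.11 without auxin. AL022310.1, a non-coding gene 8.2 kb from TNFSF4 towards lower coordinates, was higher on chromatin in the clone with TNFSF4 (1.75, adjusted p = 0.00289), and 10 of 27 genes tested within 1 Mb of TNFSF4 were called, a share near the 39.3% of all features. Near SPARC 12 of 19 were called with auxin, and 3 of them were at least 2-fold higher like SPARC: the overlapping CLMAT3 (1.23), ATOX1-AS1 (1.61) and AC091982.3 (1.04), the last pair named after their values were seen. Without auxin 5 of 19 were called there, against 32.5% of all features, and 1 was at least 2-fold higher, CLMAT3 at 1.27. The nearest tested gene on either side of SPARC, FAT2, a cadherin gene, stood at -0.5 (adjusted p = 0.0242) and AC011374.2 at 0.2 (adjusted p = 0.703). Near ZNF850 19 of 55 were called with auxin, and 3 were at least 2-fold higher, against the direction of ZNF850. Without auxin 19 of 55 were called, 1 at least 2-fold higher and 1 at least 2-fold lower. The nearest to ZNF850, ZNF790-AS1 (0.48, adjusted p = 0.426) and ZNF567-DT (-0.44, adjusted p = 0.133), were not called with auxin. Near ERBB4 5 of 7 were called with auxin, with AC093865.1 at -0.91 (adjusted p = 1.38e-05), CPS1, a urea-cycle gene, at -0.27 (adjusted p = 0.0221) and 1 at least 2-fold lower. Without auxin 4 of 7 were called, with 0 at least 2-fold lower.

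Around AZGP1P2 and NRIP1 a neighbour shared the pattern. RNU6-1104P, a U6 snRNA copy 17.4 kb below AZGP1P2, had 12, 17 and 19 chromatin counts in auxin-treated DIS3-AID libraries and 0 in auxin-treated control libraries. The gene on the other side, EMSLR, 18.6 kb away, stood at -0.12 on chromatin (adjusted p = 0.341), and FIS1, a mitochondrial fission gene, at -0.14 in the cytoplasm. Below NRIP1, LINC02246 had 0 chromatin counts in auxin-treated DIS3-AID libraries and 29, 20 and 23 in auxin-treated control libraries. It shares 1554 exonic bases with AF127577.4 on the same strand, so it is not an independent gene in these counts. The flanking coding genes differed far less on chromatin, HSPA13, an HSP70-family gene, by -0.66 (adjusted p = 0.00129) and USP25, a deubiquitinase gene, by -0.23 (adjusted p = 0.0358). In the cytoplasm HSPA13 had 8.4 ± 1.99 CPM in auxin-treated DIS3-AID cells and 21.4 ± 3.53 CPM in auxin-treated control cells (SD, n = 3 each). Without auxin it had 12.2 and 21.4 CPM there, while USP25 had 41.4 and 38.5 CPM with auxin. Within 1 Mb of NRIP1 on chromatin 5 of 5 tested genes were called, against 39.3% of all features, AF127577.4 and LINC02246 at 2-fold or more. In the cytoplasm 2 of 3 were called, both at least 2-fold lower, against 56.9% of all features. Both counts include AF127577.4, which was itself chosen for its loss and overlaps NRIP1, and the chromatin count includes LINC02246 as well. They are a description and do not show that the region as a whole was lower. Without auxin 3 of 5 were called on chromatin and 3 of 3 in the cytoplasm.

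**Figure D5:**
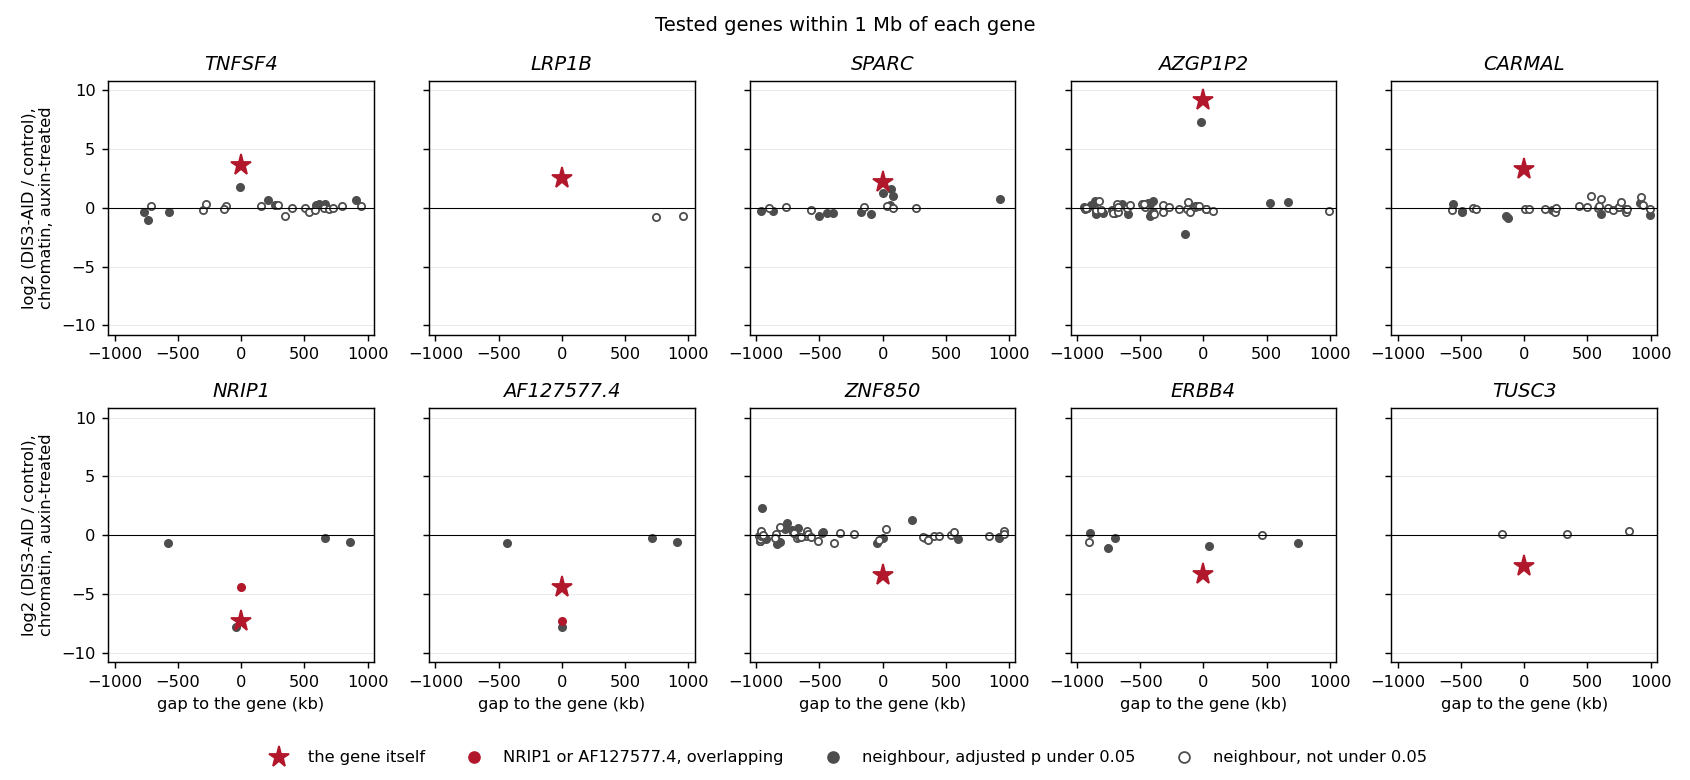
Log2 difference between the lines (DIS3-AID over control) on chromatin in auxin-treated libraries for tested genes within 1 Mb of each of the 10 genes, against the gap to that gene in kb, with filled circles at an adjusted p under 0.05 and a star for the gene itself. RNU6-1104P beside AZGP1P2 and LINC02246 beside NRIP1 lie farthest from 0, and 3 genes near SPARC and 3 near ZNF850 are also at least 2-fold higher.

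The families to which the 10 genes belong were read as lists, in auxin-treated libraries and without the 10 genes, beside a median over all features of -0.007 on chromatin and -0.025 in the cytoplasm. Counts of called genes stand against 39.3% of all features called on chromatin and 56.9% in the cytoplasm. Of 15 other ERBB receptor and ligand genes tested on chromatin, 2 were higher and 7 lower, with a median of -0.2, and without auxin 3 were higher and 7 lower. NRG1, which encodes a ligand of ERBB4, rose with 82.1 ± 4.02 CPM in auxin-treated DIS3-AID chromatin and 15.8 ± 1.21 CPM in auxin-treated control chromatin (SD, n = 3 each), a difference of 2.38 (adjusted p = 1.96e-14). AREG (-1.77, adjusted p = 3.98e-12) and EREG (-1.17, adjusted p = 2e-10), ligands of EGFR, fell. Without auxin NRG1 stood at 1.89, AREG at -1.49 and EREG at -0.93. The clone thus had less ERBB4 RNA and more NRG1 RNA on chromatin.

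Of 10 other SPARC-family and matricellular genes on chromatin, 3 were higher and 5 lower, with a median of -0.53, and without auxin 3 were higher and 5 lower, with a median of -0.4. SMOC2, a SPARC relative, was higher (2.3, adjusted p = 0.00506), with 44 counts over auxin-treated DIS3-AID chromatin and 9 over auxin-treated control chromatin. FN1, which encodes fibronectin, was lower (-1.67, adjusted p = 2.69e-09), as was THBS1 (-1.29, adjusted p = 3.17e-09), a thrombospondin gene. SMOC1 was higher (1.25, adjusted p = 0.0288), a call that DESeq2 did not make (adjusted p = 0.0611) and that ended without the first auxin-treated DIS3-AID library (0.79) or the second auxin-treated control library (0.99).

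Of 12 other LDL receptor family genes in the cytoplasm, 0 were higher and 8 lower with a median of -0.31, and LRP1B alone of its list was called at 2-fold or more. Without auxin 0 were higher and 1 lower (median 0.02). With library sizes alone 1 was higher and 6 lower in auxin-treated cells. Of 7 other TNF superfamily ligand genes in the cytoplasm 2 were higher and 3 lower, and without auxin 0 and 3. Of 18 nuclear receptor cofactor and partner genes in the cytoplasm 3 were higher and 8 lower, which turned to 5 higher and 3 lower with library sizes alone. The 11 of 18 called are a share near that of all features, and without auxin 4 were higher and 3 lower. ESR1, the gene of an oestrogen receptor, was higher there (1.6, adjusted p = 3.24e-05). Without auxin ESR1 stood at 0.33 and was not called (adjusted p = 0.475), and auxin raised it in the clone by 1.34 (adjusted p = 0.000357). Of 11 other oligosaccharyltransferase genes in the cytoplasm 0 were higher and 9 lower (median -0.29), and on chromatin 1 was higher and 2 lower (median 0.04). Without auxin 0 were higher and 1 lower in the cytoplasm (median -0.05) and 0 and 1 on chromatin (median -0.06). Of 11 other zinc finger genes beside ZNF850 on chromatin 3 were higher and 3 lower (median -0.05), and without auxin 4 and 2 (median 0.04). No other gene of the AZGP1 list passed the filter in any data set. Library sizes alone raised the cytoplasmic median of all features by 0.109.

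SPARC and TNFSF4 are also expressed in stromal, endothelial or immune cells, so markers of those cells were counted, and their part in the results was not tested. Counts of called markers stand against 39.3% of all features called on auxin-treated chromatin and 56.9% in auxin-treated cytoplasm. Without auxin these shares were 32.5% and 22.1%. In auxin-treated DIS3-AID cytoplasm the fibroblast markers COL1A2, DCN, LUM, FAP and POSTN had 0 counts, 5 of 14 in the list, and the summed list was 107 to 116 CPM against 169 to 185 CPM in auxin-treated control cytoplasm. Of the fibroblast genes tested there 0 of 5 were higher and 2 lower. The immune markers PTPRC and CD3E had 0 counts on auxin-treated chromatin of both lines, as did CD52, 3 of 12 in the list, and the summed immune list was 3.28 to 3.65 CPM in auxin-treated DIS3-AID chromatin and 3.0 to 3.4 CPM in auxin-treated control chromatin. Of 4 immune genes tested on chromatin 1 was higher, CSF1R, a receptor gene of macrophages, at 1.26 (adjusted p = 0.00189). CSF1R stood at 2.2 on chromatin without auxin, where ITGAM, another myeloid gene, stood at 0.61. In auxin-treated cytoplasm CSF1R was higher too (1.39, adjusted p = 0.00974), but of 5 immune genes tested there 1 was higher and 2 lower. The summed immune list there was 5.41 to 6.09 CPM in the clone and 6.67 to 7.06 CPM in control cells. Without auxin 0 of the 5 were higher and 0 lower in the cytoplasm. The endothelial list summed to 6.87 to 7.22 CPM in auxin-treated DIS3-AID chromatin and 8.62 to 8.98 CPM in auxin-treated control chromatin, with 0 of 6 tested genes higher and 3 lower. In the cytoplasm it summed to 4.86 to 5.44 CPM in the auxin-treated clone and 3.39 to 3.63 CPM in auxin-treated control cells, with 3 of 5 higher, VWF at 1.44 (adjusted p = 1.63e-08). Without auxin 0 of the 5 were called higher there and VWF stood at 0.06. VWF was among the genes lower on auxin-treated chromatin, at -0.31 (adjusted p = 0.0107). On untreated chromatin 1 of the 6 endothelial genes was higher and 0 lower. In bulk RNA, fewer cells carrying a transcript and less of it per cell cannot be told apart.

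Genes of the mesenchymal state were mostly lower in the clone, except in untreated cytoplasm. Of 7 tested on chromatin 0 were higher and 6 lower with auxin, with a median of -0.98, where 39.3% of all features were called. Without auxin 1 was higher and 5 lower there, against 32.5% of all features. Of 8 tested in the cytoplasm 0 were higher and 6 lower with auxin, against 56.9% of all features. Without auxin 1 was higher and 3 lower there, against 22.1%. VIM, which encodes vimentin, had 2.06 ± 0.232 CPM in auxin-treated DIS3-AID cytoplasm and 8.84 ± 0.612 CPM in auxin-treated control cytoplasm (SD, n = 3 each), a difference of -2.11 (adjusted p = 1.26e-12). ZEB2, a repressor of epithelial genes, fell on chromatin (-2.48, adjusted p = 1.22e-05). Without auxin VIM stood at -1.97 in the cytoplasm and ZEB2 at -2.11 on chromatin. Of the colon epithelium genes 1 of 11 was higher on chromatin and 4 lower, and ELF3, an epithelial transcription factor, was lower there with auxin, at -1.32 (adjusted p = 6.04e-07). Without auxin ELF3 stood at 0.24 on chromatin and was not called (adjusted p = 0.193), and at -0.65 in the cytoplasm.

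The feature whose level followed each gene most closely over the 24 total RNA libraries was found by Pearson's r of log2(CPM + 2), as a description; these libraries share the lines and fractions that set the pattern. PARD3B, a cell polarity gene, was closest to LRP1B (r = 0.991), RERG, a RAS-like growth inhibitor gene, to CARMAL (0.989), and SLC5A1, the sodium-glucose transporter gene, to AZGP1P2 (0.972). DPYSL3 was closest to both TNFSF4 (0.961) and SPARC (0.959). Among the lost genes, HNF4A, a transcription factor of gut and liver epithelium, was closest to AF127577.4 (0.98), PDE4B to NRIP1 (0.968), OFCC1 to TUSC3 (0.991), LMNTD1 to ERBB4 (0.961) and ZNF615, another zinc finger gene, to ZNF850 (0.976).

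Promoter windows of 250 bases were read for the 6 of 10 genes matched in the RefSeq table used here and searched for CG, which reads alike on both strands. Over all 35116 RefSeq windows the median was 11, with quartiles at 3 and 23. CARMAL held 4, TNFSF4 5 and SPARC 7 among the gained genes. ERBB4 held 14, ZNF850 19 and the 3 NRIP1 starts 11, 26 and 42 among the lost ones. These windows differ in what they hold: annotated exons cover all 250 bases of the SPARC window and 192 of the TNFSF4 window, and 0 to 96 bases of the others. Methylation was not measured here, and this count of letters is a description. The CARMAL window and the NRIP1 window with 26 CG, a number that 19.6% of RefSeq windows reach or exceed, are shown as a low and a high example, with CG in capitals (RefSeq, GRCh38.p14, chr15:89040748-89040997, plus strand, and chr21:15065001-15065250, minus strand).
CARMAL: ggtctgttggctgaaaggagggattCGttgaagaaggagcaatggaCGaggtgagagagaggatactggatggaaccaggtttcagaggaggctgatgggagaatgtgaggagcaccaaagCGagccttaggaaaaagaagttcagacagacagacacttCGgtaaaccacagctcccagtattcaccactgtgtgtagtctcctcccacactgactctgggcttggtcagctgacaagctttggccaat
NRIP1: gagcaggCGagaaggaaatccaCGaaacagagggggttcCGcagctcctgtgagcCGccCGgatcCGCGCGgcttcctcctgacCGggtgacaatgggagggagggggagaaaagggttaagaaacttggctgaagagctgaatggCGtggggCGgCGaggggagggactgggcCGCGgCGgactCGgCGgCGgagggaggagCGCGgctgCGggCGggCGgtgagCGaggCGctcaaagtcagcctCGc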

How the data were processed

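Deposited tables of read counts per feature, 1 per library, were used as they stood; their unit was checked against the values. STAR 2.7.3a, Cufflinks 2.2.1 and featureCounts 2.0.0 on hg38 are named in the submitters' processing notes, and their settings are not given in the sources used here. Per the labels' protocols, total RNA libraries came from a stranded total RNA kit and polyA libraries from a stranded mRNA kit. The authors' counts list 59607 features in the total RNA sets and 60095 in the polyA set, so polyA levels were not compared with total RNA levels.

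TMM scaling was applied within each data set. After filterByExpr (min.count 10), 24966 chromatin, 23027 cytoplasm and 16651 polyA features were fitted over 12 libraries each with edgeR 4.0.16 (robust quasi-likelihood, R 4.3.3, limma 3.58.1). Chromatin and cytoplasm were fitted jointly over 24 libraries for comparisons between fractions. CPM are counts divided by the TMM-scaled library size, times 1000000. DESeq2 1.42.0, library sizes alone, no filter, a replicate block and leaving out each library were the alternatives. The scripts were tested on simulated data. Replicates differed by more than counting noise (chi-square per degree of freedom at least 2.56). Intervals on ratios of counts are 95% and cover counting error only.

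The 10 genes, gene lists and tests were chosen with earlier results of these data known. Beyond the 10 and DIS3, genes named are list members called at 2-fold or more (at most 4 per list), the nearest tested gene on each side, those ranked next to the 10 in the untreated comparison and the most similar feature. CLMAT3, MAGT1, TNFRSF4, AZGP1, ITGAM, ATOX1-AS1 and AC091982.3 are named in addition, after their values were seen. Gene positions came from GENCODE 29 and promoter sequences from RefSeq, both on hg38.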

Additional observations from a re-analysis of the deposited data

Results flagged for a closer look

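In all, 7 values were set aside because an effect differed between the lines or between the fractions by the test of that difference. Between the lines, the auxin response of SPARC in the cytoplasm differed by -0.86 and that of CARMAL on chromatin by -0.76, as DIS3-AID minus control. Between the fractions, the line difference in auxin-treated cells, chromatin minus cytoplasm, was -0.75 for LRP1B, -3.52 for ERBB4, 1.39 for ZNF850, 4.74 for NRIP1 and 4.82 for AF127577.4. The values of NRIP1 and AF127577.4 rest on 0 and 2 cytoplasmic counts in the auxin-treated clone, so that of NRIP1 depends on the prior count and gives no size. The part of low counts or of shared reads in these differences was not tested.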

How the results depend on the processing

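The line difference in auxin-treated cells kept its 10 called genes on chromatin and 9 in the cytoplasm under all 10 alternatives run in each. It was steady in polyA RNA too, with 5 to 6 called. Auxin calls moved more. Against 2 genes in the clone's chromatin, 1 was called by DESeq2 (LRP1B), 1 with library sizes alone (AZGP1P2), 1 with no filter (LRP1B), 0 with the replicate block and 0 to 2 leaving out single libraries. In the clone's polyA RNA, 1 of 2 was left by DESeq2 (SPARC) and 1 to 2 leaving out libraries. In control cytoplasm no filter called 1 gene (LRP1B, adjusted p = 0.0139) where 0 had passed, and on control chromatin leaving out libraries gave 0 to 1. For the difference in auxin response between the lines, the cytoplasm gave 2 with no filter (SPARC and ERBB4, ERBB4 with adjusted p = 0.0403) and 1 to 2 leaving out libraries, and chromatin 2 with library sizes alone (SPARC and CARMAL, SPARC with adjusted p = 0.0409) and 0 to 1 leaving out libraries. The causes were not tested. No value changed direction.

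Over 63 results for single genes, 649 of 684 alternative values kept their side of the threshold, 31 lost the call and 4 gained it. Same-numbered libraries did not all deviate together (lowest correlation under 0.1 in every comparison), and the main fits did not pair them. The highest correlation was 0.323 for the line difference in auxin-treated cytoplasm and 0.345 for that difference between the fractions. Whether the numbers pair some of the libraries is therefore not settled. Beside the 0 above, the replicate block left the number of the 10 genes called as it was in every comparison. Over all features it moved auxin in control cells to 62 called in the cytoplasm, where 11 had been, and to 22 in polyA RNA, where 8 had been, and features with a lower auxin response in the clone to 1300 in the cytoplasm, where 763 had been. Library sizes alone turned the split of all features in auxin-treated cytoplasm to 7871 higher and 3933 lower in the clone, where 6520 were higher and 6581 lower. Depth limits ERBB4 and TUSC3 in the cytoplasm, NRIP1 and AF127577.4 in the clone, and LRP1B, NRIP1, ERBB4 and TUSC3 in polyA RNA, which were too low there to be tested.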

Other observations

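CLMAT3, the antisense RNA that overlaps SPARC, was looked at after its values were seen. In the cytoplasm it had 2.17, 2.72 and 2.62 CPM in auxin-treated DIS3-AID libraries, against 0.5, 0.544 and 0.553 CPM in untreated DIS3-AID libraries. Auxin thus raised it in the clone by 2.22 ± 0.18 (adjusted p = 8.36e-09 by edgeR), in the same libraries in which SPARC was 0.47 lower on the log2 scale. In auxin-treated control cytoplasm it had 0.28, 0.218 and 0.114 CPM, against 0.252, 0.14 and 0.247 CPM in untreated control cytoplasm, and the groups overlapped. The response differed between the lines by 2.23 ± 0.36 (adjusted p = 0.000104). On chromatin the auxin effect in the clone was 0.69 ± 0.25 (adjusted p = 0.054). Whether reads of the pair were counted by strand is not given in the sources used here, so the part of either gene in the other's count was not tested.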
